A study of Mus musculus with 6 samples.

Results

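Cytotoxic granule genes were examined in activated CD8+ T cells cultured with or without DOPAC: the granzymes, the pore-forming protein perforin, and 3 further granule proteins. The rule named 10 genes by symbol, namely Gzma, Gzmb, Gzmc, Gzmd, Gzme, Gzmf, Prf1, Srgn, Nkg7 and Ctsw. Of these, 6 had a row among the 11175 genes of the expression table: Gzmb, Gzmc, Prf1, Srgn, Nkg7 and Ctsw. Gzma, Gzmd, Gzme and Gzmf were not analysed here. All 6 had a mean of at least 1 FPKM (fragments counted relative to transcript length and library size) over the libraries and were among the 10887 genes tested.

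Libraries were made from spleen CD8+ T cells of wild-type mice, stimulated for 48 h through the antigen receptor subunit CD3 and the costimulatory receptor CD28. There were 3 libraries of cells that also received DOPAC, the catechol dihydroxyphenylacetic acid formed in dopamine breakdown, and 3 libraries of control cells stimulated without it. The labels give no DOPAC dose, mouse strain, age or sex, and do not say whether replicates came from separate animals or cultures, so the spread behind each p-value is that of these 6 libraries and may be technical. The FPKM of all listed genes summed to between 292755 and 316035 in the DOPAC libraries and between 283818 and 310918 in the control libraries; read depth is unknown. All 9 CD8 T cell markers examined had a row, summing to 1309 to 1421 FPKM in the DOPAC libraries and 1387 to 1519 FPKM in the control libraries. The markers of CD4 T cells and of neutrophils and mast cells had no row. Of 6 B cell markers 2 had one, summing to 127 to 155 FPKM in the DOPAC libraries and 145 to 156 FPKM in the control libraries, nearly all of it Ighm, while 2 of 4 erythroid markers summed to 0.280 to 3.02 FPKM in the DOPAC libraries and 2.72 to 10.4 FPKM in the control libraries. Control replicate 1 stood apart, with a correlation across genes of 0.899 to 0.917 with the other 5 libraries, against 0.974 to 0.992 among those. It was high for genes whose exons add up to few bases and low for genes whose exons add up to many. Its median log2 deviation from the other 5 libraries was 0.48 for genes up to 1000 bases and -0.67 for genes over 8000 bases. DOPAC replicate 1 also differed from its group for several granule genes, so each granule gene is given with and without each of these libraries.

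A cytotoxic T cell kills by releasing secretory lysosomes, the cytotoxic granules, onto a target cell. Perforin opens the target membrane, and granzymes, which are serine proteases, enter and cleave proteins that start cell death. Inside the granule both are packed on serglycin, a proteoglycan encoded by Srgn. Naive CD8+ T cells hold little of this cargo, and stimulation of the antigen receptor is known to induce it.

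Gzmb and Gzmc are neighbours in 1 cluster of protease genes on chromosome 14, at 56258838 to 56262260 and at 56231441 to 56234656 on the minus strand (GENCODE M21 on GRCm38, the assembly also called mm10). Prf1 lies on chromosome 10 at 61297833 to 61304680 on the plus strand. Their upstream sequences, taken from RefSeq (GRCm38.p6), are printed because Gzmb and Prf1 had like fold changes while Gzmc, next to Gzmb, did not. Each runs 5′ to 3′ over the 250 bases before the RefSeq start, chr14:56262335-56262584 and chr14:56234658-56234907 on the minus strand and chr10:61297586-61297835 on the plus strand. Capitals mark matches, on either strand, to letters bound by factors of T cell activation, effector differentiation and the oxygen response: AP-1 (TGANTCA), the cAMP response element half-site (TGACGT), RUNX (TGTGGT), T-box factors (AGGTGTGA) and HIF (ACGTG).
Gzmb: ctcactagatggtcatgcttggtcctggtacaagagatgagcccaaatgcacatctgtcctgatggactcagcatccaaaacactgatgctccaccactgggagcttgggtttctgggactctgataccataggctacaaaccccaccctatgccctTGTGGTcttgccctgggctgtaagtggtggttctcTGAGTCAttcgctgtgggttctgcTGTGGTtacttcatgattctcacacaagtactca
Gzmc: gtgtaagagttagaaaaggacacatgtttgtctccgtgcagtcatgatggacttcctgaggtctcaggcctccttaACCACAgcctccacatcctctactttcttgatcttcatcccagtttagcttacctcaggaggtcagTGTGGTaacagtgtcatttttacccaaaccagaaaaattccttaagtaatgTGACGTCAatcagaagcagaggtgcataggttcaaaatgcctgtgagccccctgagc
Prf1: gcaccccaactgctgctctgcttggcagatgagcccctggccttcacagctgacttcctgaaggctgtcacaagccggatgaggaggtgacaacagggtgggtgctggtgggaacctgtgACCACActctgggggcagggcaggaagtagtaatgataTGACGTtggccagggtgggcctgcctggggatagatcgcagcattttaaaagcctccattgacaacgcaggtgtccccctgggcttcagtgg

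The Gzmb window held an AP-1 match that began 58 bases before the start and RUNX matches at 93 and 34 bases. The Gzmc window held RUNX matches at 174 and 108 bases and 2 overlapping half-sites, at 57 and 55 bases, which form 1 palindrome. The Prf1 window held a RUNX match at 130 bases and a half-site at 92 bases. Over all 32851 RefSeq promoter windows of this length, 14.0% held the RUNX letters, 6.75% the AP-1 letters and 6.47% the half-site. The T-box letters, in 1.12% of all windows, and the HIF letters, in 16.6%, had no match in these 3 windows. The RUNX letters were thus present in all 3 windows, but not only there. The same search before Nkg7 found RUNX letters at 83 bases and T-box letters at 14 bases. A window before Srgn held RUNX letters at 202 bases, a half-site at 72 and HIF letters at 70. The window of another Srgn start held no match. A match describes the sequence and says nothing of binding in these cells.

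The perforin gene had the smallest p of the 6 granule genes. Prf1 (ENSMUSG00000037202) measured 24.9, 16.8 and 18.8 FPKM in DOPAC replicates 1 to 3, against 12.3, 13.9 and 13.5 FPKM in control replicates 1 to 3. Every DOPAC library lay above every control library, DOPAC replicate 1 was the highest, and the control values were close together. The means were 20.2 ± 4.22 FPKM with DOPAC and 13.3 ± 0.861 FPKM in control cells (SD, n = 3 each). On the log2(FPKM + 1) scale the difference was 0.56 (95% interval 0.15 to 0.96). It did not pass the threshold over all genes (limma, Benjamini-Hochberg adjusted p = 0.801), as was true of every gene, since 0 of 10887 (0%) passed in this fit. Its unadjusted p was under 0.05, as in 456 genes (4.19%). Without DOPAC replicate 1 the difference was 0.40 (95% interval 0.02 to 0.78; adjusted p = 0.880), and the groups still did not overlap, as in 29.1% of all genes tested with these 5 libraries. Without control replicate 1, when 0.0184% of genes passed the threshold, it was 0.51 (95% interval 0.11 to 0.90; adjusted p = 0.302), and without both first replicates 0.35 (95% interval 0.16 to 0.54; adjusted p = 0.217). With both left out, 1790 of the 10887 genes tested had an unadjusted p under 0.05 in limma.

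Gzmb (ENSMUSG00000015437), which encodes granzyme B, the main caspase-cleaving protease of the granule, was the most abundant of these transcripts. It measured 1248, 673 and 809 FPKM in the DOPAC libraries, against 694, 535 and 582 FPKM in the control libraries, and ranked between 28 and 60 among the 11175 genes of each library. DOPAC replicate 1 was far above the other 5, and DOPAC replicate 2 lay below control replicate 1, so the groups overlapped. The means were 910.1 ± 300.4 FPKM with DOPAC and 604 ± 82.1 FPKM in control cells (SD, n = 3 each), and the log2 difference was 0.55 (95% interval -0.02 to 1.12; limma adjusted p = 0.801). Without DOPAC replicate 1 the DOPAC mean was 741 FPKM and the log2 difference 0.30 (95% interval -0.13 to 0.72; adjusted p = 0.880). Without control replicate 1, which for this gene was the highest control, the groups did not overlap, as in 36.8% of all genes tested, and the log2 difference was 0.66 (95% interval 0.03 to 1.28; adjusted p = 0.332). With both left out it was 0.40 (95% interval 0.13 to 0.67; adjusted p = 0.230). In that fit 1790 of the 10887 genes tested had an unadjusted p under 0.05 in limma. The replicate numbers were kept as a block in another fit, which gave the same difference of 0.55 with a narrower interval of 0.19 to 0.91 (adjusted p = 0.698).

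**Figure D1:**
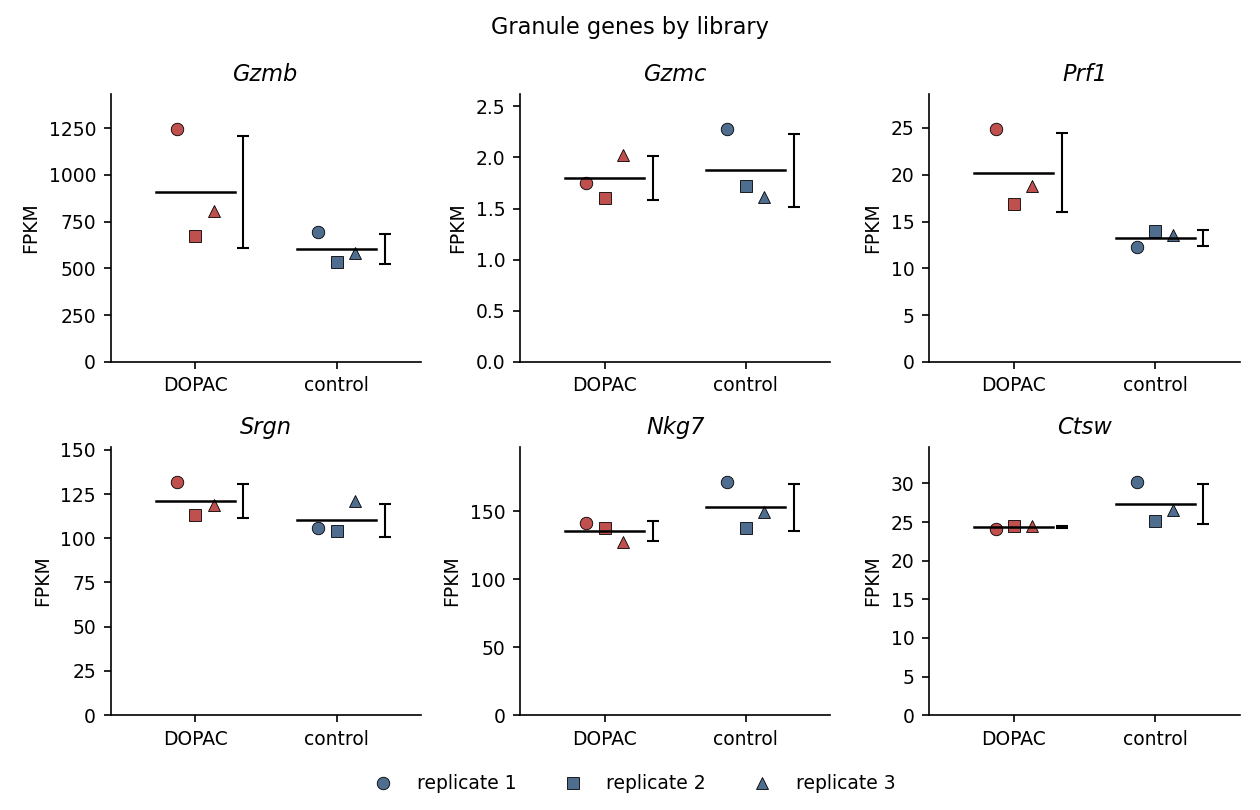
FPKM of the 6 granule genes in each library (y axis from 0, a different scale for each gene), with DOPAC libraries in red on the left and control libraries in blue on the right; symbols give the replicate number, lines the means and bars the SD (n = 3 each). Prf1 separates the groups, with 16.8 FPKM in the lowest DOPAC library and 13.9 FPKM in the highest control library, and DOPAC replicate 1 is highest for Gzmb at 1248 FPKM.

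Gzmc (ENSMUSG00000079186), a granzyme of the same cluster induced late in strongly stimulated mouse T cells, was low, ranking between 8596 and 9826 among the 11175 genes of each library. It measured 1.75, 1.61 and 2.03 FPKM in the DOPAC libraries, against 2.28, 1.72 and 1.62 FPKM in the control libraries. Gzmc thus showed no separation, with control replicate 1 highest and control replicate 3 close to the lowest DOPAC library. Its log2 difference was -0.04 (95% interval -0.37 to 0.30; limma adjusted p = 0.944), -0.03 without DOPAC replicate 1 and 0.06 without control replicate 1. The GENCODE transcripts of Gzmc and Gzmb were 76.2% identical over 887 aligned bases, with a longest shared run of 49 bases, while Gzmb measured 304 to 713 times as many FPKM as Gzmc in the same library. Gzmc shared runs of up to 68 bases with its other neighbours, with Gzme at that length. How fragments matching more than 1 of these genes were assigned is not given in the sources used here, so the low Gzmc values are uncertain.

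The 3 further granule genes had smaller differences between the groups. Srgn (ENSMUSG00000020077), on chromosome 10 at 62493833 to 62527451, measured 132, 113 and 119 FPKM in the DOPAC libraries, against 106, 104 and 121 FPKM in the control libraries. The groups overlapped through control replicate 3, and the log2 difference was 0.14 (95% interval -0.16 to 0.44; limma adjusted p = 0.802), or 0.07 without DOPAC replicate 1 and 0.11 without control replicate 1. Nkg7 (ENSMUSG00000004612), on chromosome 7 at 43437073 to 43438249, encodes a granule membrane protein that T cells need for full degranulation. It measured 141, 138 and 127 FPKM in the DOPAC libraries, against 172, 137 and 150 FPKM in the control libraries, with control replicate 1 highest and DOPAC replicate 3 lowest. Its log2 difference was -0.17 (95% interval -0.48 to 0.14; adjusted p = 0.801), or -0.20 without DOPAC replicate 1 and -0.08 without control replicate 1. Nkg7 has a summed exon length of 914 bp and Gzmc of 894 bp. Genes up to 1000 bp had a median deviation of 0.48 (log2) in control replicate 1 from the other 5 libraries. Genes over 1000 and up to 1500 bp, among them Gzmb, had 0.37, and those up to 2000 bp, among them Ctsw, 0.20. The part of exon length in the control replicate 1 values of single granule genes was not tested.

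Ctsw (ENSMUSG00000024910), on chromosome 19 at 5465043 to 5468507, encodes cathepsin W, a papain-like protease of cytotoxic lymphocytes. It measured 24.1, 24.5 and 24.5 FPKM in the DOPAC libraries, against 30.2, 25.2 and 26.6 FPKM in the control libraries. Every DOPAC library lay below every control library, and the DOPAC libraries were nearly equal. The log2 difference was -0.16 (95% interval -0.45 to 0.13; limma adjusted p = 0.801). It was -0.15 without DOPAC replicate 1 and -0.08 without control replicate 1, and the groups did not overlap in either case. Such separation was common with 5 libraries, in 29.1% of all genes tested without DOPAC replicate 1 and 36.8% without control replicate 1. Ctsw and Prf1 were the 2 of 6 granule genes whose groups did not overlap, against 17.2% of all genes tested, 12.4% higher and 4.8% lower with DOPAC. Exons of Ctsw overlap those of Fibp, and the library kit does not mark strand, so reads of these genes cannot be told apart where they overlap.

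**Figure D2:**
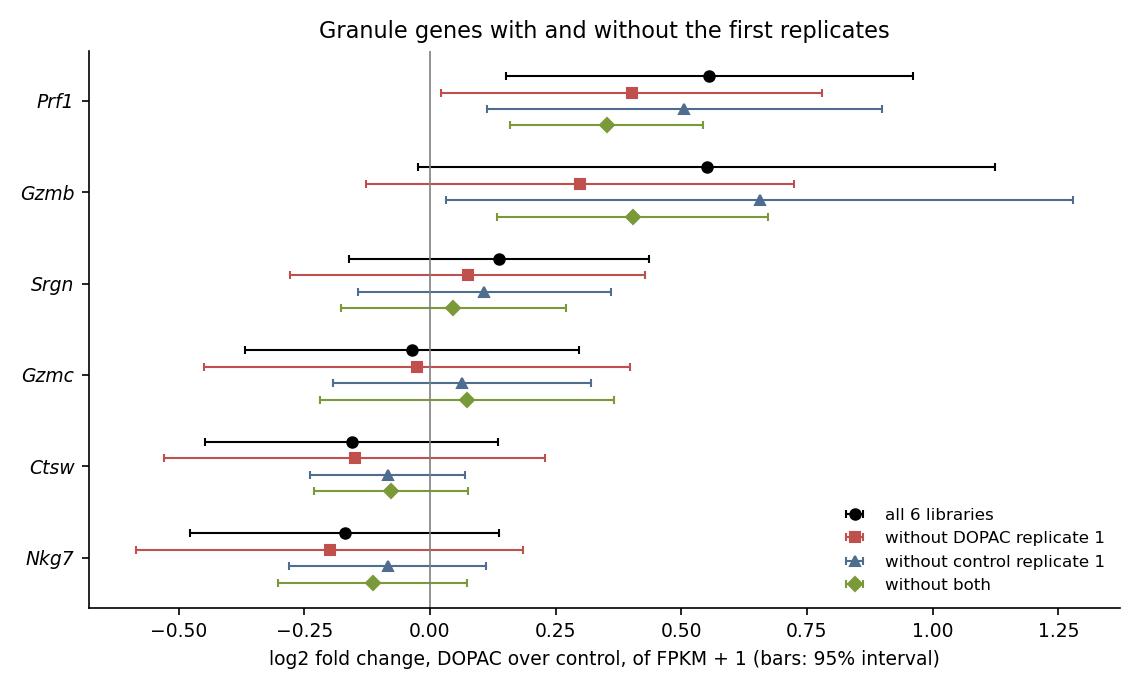
Log2 fold change of FPKM + 1, DOPAC over control, with its 95% interval from limma (x axis) for each granule gene (y axis), fitted with all 6 libraries, without DOPAC replicate 1, without control replicate 1 and without both. Prf1 keeps an interval above 0 in the 4 fits (0.56, 0.40, 0.51 and 0.35), while the Gzmb interval includes 0 with all 6 libraries and without DOPAC replicate 1.

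The 6 genes did not share a direction. With all 6 libraries 3 log2 differences were positive and 3 negative, with a median of 0.05, beside a median of 0.07 over all genes tested, of which 62.1% were positive. An unadjusted p under 0.05 was found for 1 of the 6, Prf1, beside 4.19% of all genes tested. Without DOPAC replicate 1 the median was 0.02, with 0.07 over all genes, and Prf1 was again the 1 gene with an unadjusted p under 0.05, beside 2.31% of all genes. Without control replicate 1 the median was 0.09, with -0.01 over all genes, and Gzmb and Prf1 had an unadjusted p under 0.05, beside 14.5% of all genes. DOPAC replicate 1 exceeded the mean of the other DOPAC libraries by 0.76 for Gzmb and 0.46 for Prf1 on the log2 scale. The same library differed by 0.19 for Srgn, 0.09 for Nkg7, -0.03 for Gzmc and -0.02 for Ctsw, and the median over all genes tested was -0.01.

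FPKM are given per length, the scale on which levels of different genes are set side by side here. In control replicate 1, where values varied with exon length, the order is less certain. The order was Gzmb, Nkg7, Srgn, Ctsw, Prf1 and Gzmc in 5 of the 6 libraries, while in DOPAC replicate 1 Prf1, at 24.9 FPKM, stood just above Ctsw, at 24.1 FPKM. Nkg7 and Srgn were near each other, at a ratio of 1.07 to 1.22 in DOPAC libraries and 1.24 to 1.62 in control libraries. Gzmb made up 79.4%, 69.6% and 73.5% of the summed FPKM of the 6 genes in DOPAC replicates 1 to 3, against 68.3%, 65.4% and 65.1% in control replicates 1 to 3. The Gzmb share was therefore higher in each DOPAC library, by little in DOPAC replicate 2. The sum of the 6 was 1572, 967 and 1100 FPKM in the DOPAC libraries, against 1017, 817 and 895 FPKM in the control libraries, or 0.497%, 0.327% and 0.376% of all listed FPKM against 0.327%, 0.288% and 0.307%.

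Ratios of 2 genes within a library do not depend on how libraries were scaled, though they do carry the trend with exon length of control replicate 1 (Nkg7 914 bp, Gzmb 1436 bp, Ctsw 1887 bp, Prf1 2584 bp). Gzmb over Prf1 was 50.0, 40.0 and 43.0 in the DOPAC libraries, against 56.5, 38.4 and 43.0 in the control libraries, so granzyme B and perforin transcripts had overlapping ratios. The mean log2 difference of that ratio was -0.04 (exact permutation p = 0.9, two-sided). Nkg7 over Ctsw also overlapped, at 5.84, 5.63 and 5.21 in the DOPAC libraries against 5.68, 5.46 and 5.63 in the control libraries (log2 difference -0.01; exact permutation p = 0.9). The ratios between these pairs separated the groups. Others did too, such as Srgn over Prf1, Srgn over Ctsw, Nkg7 over Srgn and Prf1 over Gzmc. In all, 9 of the 15 ratios computed separated the groups, in either direction. The 15 ratios are built from the same 6 genes, so they are not separate results. No share over all pairs of genes tested was computed for this count. Gzmb over Nkg7 was 8.85, 4.89 and 6.35 in the DOPAC libraries, against 4.05, 3.89 and 3.89 in the control libraries. Its log2 difference was 0.72, or 0.50 without DOPAC replicate 1 and 0.74 without control replicate 1. Nkg7 over Prf1 was 5.65, 8.18 and 6.77 in the DOPAC libraries, against 14.0, 9.86 and 11.1 in the control libraries, a log2 difference of -0.76, or -0.63 without DOPAC replicate 1 and -0.62 without control replicate 1. Both gave an exact permutation p of 0.1, the smallest that 3 against 3 libraries allow, and an adjusted p of 0.167 over the 15 ratios computed. Such separation was common, since the ratio of Gzmb to another gene was higher in every DOPAC library for 23.9% of the 10886 other genes tested, and the ratio of Prf1 for 46.4%.

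**Figure D3:**
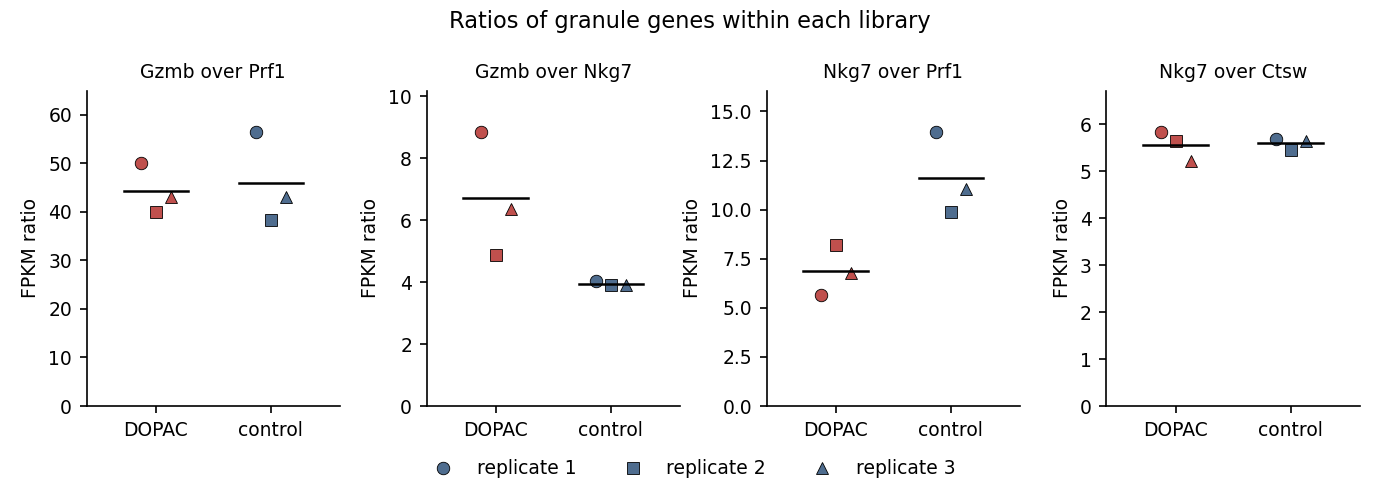
Ratio of FPKM between granule genes within each library (y axis from 0), DOPAC libraries on the left in red and control libraries on the right in blue, with symbols for the replicate number and lines for the means (n = 3 each). Gzmb over Prf1 and Nkg7 over Ctsw overlap between the groups, while Gzmb over Nkg7 is at least 4.89 in DOPAC libraries and at most 4.05 in control libraries.

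The genes whose profile over the 6 libraries lay nearest to Gzmb and Prf1 were sought among 6317 genes with a mean of at least 5 FPKM, with small RNAs, predicted genes and segments of antigen receptor genes left out, by the root-mean-square distance between centred log2(FPKM + 1) profiles. Nearest to Gzmb were Tnfrsf4 (distance 0.103), which encodes the costimulatory receptor OX40, Ly6a (0.114), which encodes the surface protein Sca-1, and Gde1 (0.123). Tnfrsf4 measured 144, 92.4 and 103 FPKM in the DOPAC libraries, against 98.6, 65.0 and 72.5 FPKM in the control libraries. Nearest to Prf1 were Tnfrsf9 (0.0654), which encodes the costimulatory receptor 4-1BB, Serpinb6b (0.0806), a serine protease inhibitor gene, and Gimap7 (0.0892), an immune GTPase gene. Prf1 itself was in position 15 from Gzmb (0.192), while Gzmb, at the same distance, was in position 156 from Prf1. These distances describe 6 libraries that share their groups.

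Among proteins that activate or restrain granzymes, Serpinb9 and Serpinb6b, both inhibitor genes, had the largest log2 differences. Of 13 named genes 10 were tested, 6 with positive and 4 with negative log2 differences (median 0.09), and 2 had an unadjusted p under 0.05, both higher, beside 2.73% of all genes tested that were higher and 1.46% that were lower at that p. Serpinb9 encodes the inhibitor that protects killer cells from their own granzyme B. It measured 31.2, 19.0 and 23.4 FPKM in the DOPAC libraries, against 12.4, 17.3 and 18.2 FPKM in the control libraries, with no overlap, a log2 difference of 0.58 (95% interval 0.04 to 1.12; limma adjusted p = 0.801), 0.40 without DOPAC replicate 1 and 0.42 without control replicate 1. Serpinb6b measured 34.8, 22.1 and 23.6 FPKM in the DOPAC libraries, against 15.1, 18.2 and 19.7 FPKM in the control libraries, a log2 difference of 0.56 (0.36 without DOPAC replicate 1 and 0.45 without control replicate 1). The groups did not overlap in Serpinb6b either, and 12.4% of all genes tested were higher with DOPAC in this way. Other genes of the list separated too, some higher and Ctsl lower, so separation was not particular to these 2 inhibitor genes. Neither Serpinb9 nor Serpinb6b had an unadjusted p under 0.05 in limma without control replicate 1. Serpinb9 and Serpinb6b belong to gene families with close copies, so their values are uncertain where reads match several members. Ctsl, a lysosomal cysteine protease gene, was low, at 1.25 ± 0.0630 FPKM with DOPAC and 1.71 ± 0.192 FPKM in control cells (SD, n = 3 each).

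Genes of granule transport, docking and fusion had values close to the background. Of 27 named 25 were tested, 16 positive and 9 negative, with a median of 0.03, and 0 had an unadjusted p under 0.05 in limma. Over all genes tested 62.1% were positive, the median was 0.07, and 4.19% had an unadjusted p under 0.05. The smallest p was that of Stx11, a syntaxin required for granule fusion, at 11.4, 7.28 and 6.71 FPKM in the DOPAC libraries against 5.07, 6.23 and 6.05 FPKM in the control libraries. Its log2 difference was 0.45 (95% interval -0.04 to 0.95), 0.24 without DOPAC replicate 1 and 0.37 without control replicate 1. Arl8b, a lysosomal GTPase gene, had 0.32 (0.13 without control replicate 1), and Coro1a, an actin regulator gene, had -0.15. The groups did not overlap in Stx11, Arl8b and Coro1a, and in no other gene of the list. Over all genes tested 17.2% had groups that did not overlap.

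Among granule membrane, sorting and lysosomal proteins 14 of 15 were tested, 7 positive and 7 negative (median 0.01), and 3 had an unadjusted p under 0.05, all lower, beside 1.46% of all genes tested. The median was -0.08 without control replicate 1, with 4 of the 14 positive. In that fit 47.3% of all genes tested were positive, with a median of -0.01. Cd63, which encodes a tetraspanin of granule membranes, measured 0.196, 0.704 and 0.755 FPKM in the DOPAC libraries, against 2.22, 1.85 and 1.22 FPKM in the control libraries, a log2 difference of -0.84 (95% interval -1.34 to -0.34; limma adjusted p = 0.801), -0.66 without DOPAC replicate 1 and -0.72 without control replicate 1. Lgmn, which encodes the protease legumain, had -0.58, and Psap, which encodes the precursor of the saposins, -0.29. Macrophages and stromal cells also express these 3 genes. The summed FPKM of the 3 of 8 macrophage markers with a row was 4.77 to 13.0 in the DOPAC libraries and 15.4 to 35.2 in the control libraries. That of the 4 of 4 stromal markers was 0.638 to 23.9 in the DOPAC libraries and 37.3 to 43.6 in the control libraries, with the lowest value in DOPAC replicate 1. The part of these cells in the differences was not tested, and in bulk samples fewer cells of a type and less RNA per cell cannot be told apart.

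Enzymes that build the sugar chains of serglycin were split, with 7 positive and 7 negative values among the 14 of 16 tested (median 0.01) and 1 lower gene with an unadjusted p under 0.05, beside 1.46% of all genes tested. With control replicate 1 left out, 4 of the 14 were positive and the median was -0.15. Over all genes tested 47.3% were positive in that fit, with a median of -0.01. The lower gene was Chst12, a chondroitin sulfotransferase gene, at 4.97, 5.98 and 5.66 FPKM in the DOPAC libraries against 7.92, 7.31 and 6.97 FPKM in the control libraries, a log2 difference of -0.36 (95% interval -0.67 to -0.06; limma adjusted p = 0.801). Chst11, another chondroitin sulfotransferase gene, had 0.31 and B3galt6, a galactosyltransferase gene of the linker region, 0.26, each with overlapping groups. Without control replicate 1 they had 0.15 and 0.14, and without DOPAC replicate 1 B3galt6 had 0.16.

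Regulators of granzyme and perforin transcription had 15 positive and 5 negative values among the 20 of 22 tested (median 0.16), with an unadjusted p under 0.05 for 3 higher genes and 1 lower. Over all genes tested 62.1% were positive, and 2.73% were higher and 1.46% lower at that p. Without control replicate 1 the list had 10 positive values and a median of 0.01, beside 47.3% positive and a median of -0.01 over all genes tested. Bhlhe40, a transcription factor gene induced by activation, measured 81.9, 62.6 and 69.4 FPKM in the DOPAC libraries, against 24.5, 47.7 and 40.7 FPKM in the control libraries. Its log2 difference was 0.95 (95% interval 0.34 to 1.56; limma adjusted p = 0.801), 0.84 without DOPAC replicate 1 and 0.67 without control replicate 1. Il12rb2, a subunit of the interleukin 12 receptor, measured 40.0, 20.9 and 23.9 FPKM in the DOPAC libraries, against 7.86, 16.2 and 15.5 FPKM in the control libraries. Its log2 difference was 1.05 (95% interval 0.24 to 1.85), 0.78 without DOPAC replicate 1 and 0.74 without control replicate 1. Its groups did not overlap, as in 12.4% of all genes tested that were higher with DOPAC in this way. Eomes, a T-box factor gene known to drive Prf1, was lower, at 2.95, 3.12 and 2.92 FPKM in the DOPAC libraries against 4.05, 4.93 and 3.54 FPKM in the control libraries, a log2 difference of -0.37 (95% interval -0.70 to -0.03; adjusted p = 0.801). The groups did not overlap in Eomes, as in 4.8% of all genes tested that were lower with DOPAC in this way. They did not overlap in Prf1 either, as in 12.4% of all genes tested that were higher. A link between Eomes and Prf1 in these cells was not tested. Eomes was also the 1 of 7 natural killer cell markers with a row. In the annotation, exons of Il12rb2 overlap those of Serbp1, exons of Coro1a overlap those of Bola2, and Bhlhe40, Eomes, Ctsl, Gde1 and Gimap7 overlap predicted or unnamed gene models, so part of their reads cannot be assigned with certainty.

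**Figure D4:**
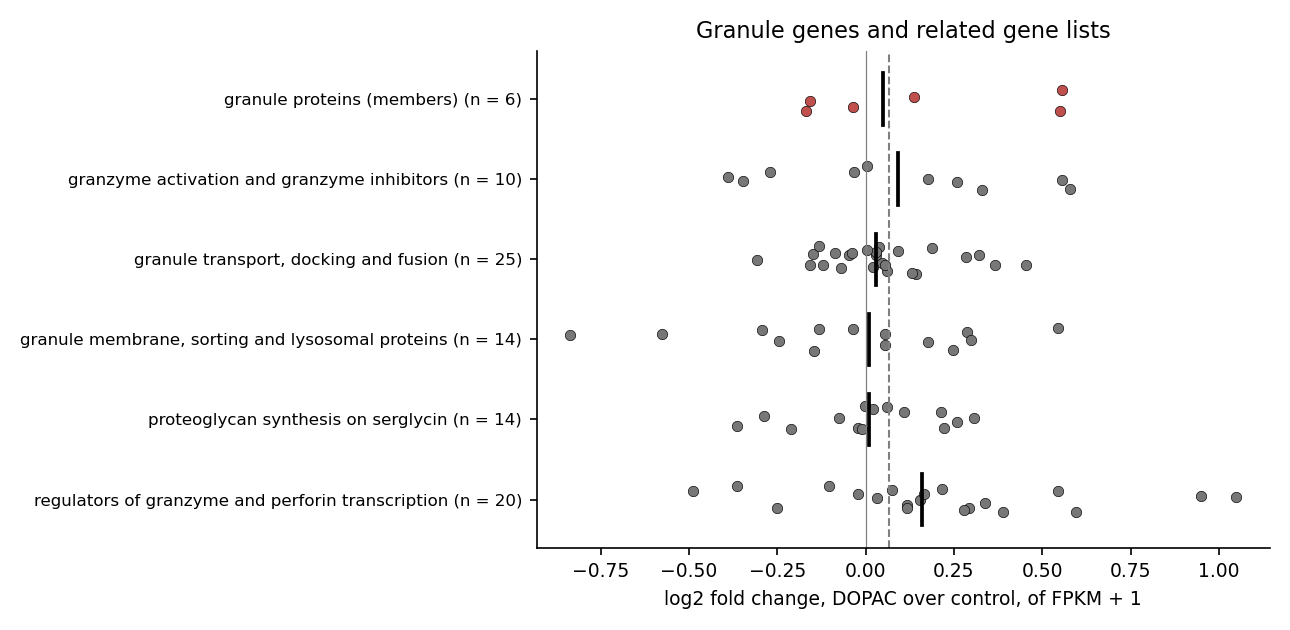
Log2 fold change of FPKM + 1, DOPAC over control (x axis), for the 6 granule genes (red) and the tested genes of 5 related lists (grey), each point a gene and each black bar the list's median; the dashed line is the median of all genes tested, 0.07. The list medians lie between 0.01 and 0.16, and single genes between -0.84 (Cd63) and 1.05 (Il12rb2).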

How the data were processed

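Per the file headers, the authors deposited FPKM for each gene in each library, with their own log2 fold change, p-value and adjusted p-value. The submitters' processing notes name cutadapt 1.9, HISAT2 2.2.1 and build mm10. The FPKM estimator is not given in the sources used here. The full-length cDNA and transposon-based library kits named in the labels do not mark strand. The log2 fold change in the authors' deposited table equalled the difference of mean log2(FPKM + 1), and its lowest adjusted p was 0.801. One title misspells DOPAC for DOPAC replicate 1, while its library name and treatment label read DOPAC.

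The 288 genes with a mean under 1 FPKM were dropped. A linear model of log2(FPKM + 1), DOPAC minus control, was fitted with limma 3.58.1 in R 4.3.3, with a mean-variance trend, in all 6 libraries. Fold changes are on this scale, which understates those of low genes. Benjamini-Hochberg adjustment ran over the 10887 genes tested, with a threshold of 0.05. Ratios were tested by exact two-sided permutation of libraries (scipy 1.17.1). The granule genes, lists and upstream motifs were chosen with earlier results of these data known. From each list the 3 genes with the smallest p were eligible to be named, and for Gzmb and Prf1 the 3 nearest profiles.

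Same-numbered DOPAC and control libraries deviated together from their group means (correlations 0.34, 0.16 and 0.28 across genes), and so did DOPAC replicate 3 with control replicate 2 (0.24) and DOPAC replicate 2 with control replicate 3 (0.19). The correlations do not establish pairs and no label names them, so the numbers entered as a block in an alternative fit and not in the main tests. Alternatives were other pseudocounts, filters, scalings and variance models, library weights, the replicate block, and leaving out libraries. Positions came from GENCODE M21, alignments from Biopython 1.88, figures from Python 3.11.15 with matplotlib 3.10.9.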

Additional observations from a re-analysis of the deposited data

How the results depend on the processing

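Of the 6 granule genes 0 passed the threshold under any alternative run. Gzmb, Prf1 and Srgn stayed positive and Nkg7 and Ctsw negative under all 19 alternatives. Prf1 ranged from 0.35 to 0.67 and Gzmb from 0.30 to 0.74. Prf1 had an unadjusted p under 0.05 in limma in 18 of the 19, against 6 of the 19 for Gzmb. The exception for Prf1 was library weights, at 0.39 (interval -0.008 to 0.78; unadjusted p = 0.054 in limma). Genes under that threshold ran from 231 of 10887 tested without DOPAC replicate 3 to 1790 of 10887 without both first replicates. The 19 alternatives reuse the same 6 libraries, so they are not separate results. Leaving out 1 library at a time, Prf1 ranged from 0.40 to 0.67, Gzmb from 0.30 to 0.74 and Gzmc from -0.10 to 0.063. The sign of Gzmc also changed with library weights (0.032), with DOPAC replicate 1 left out and the replicate block (0.074), with both first replicates left out (0.074) and with the exon length trend removed (0.069). The median of the granule genes was 0.14 with a filter of at least 5 FPKM, which leaves out Gzmc, and 0.01 to 0.10 leaving out 1 library. Its sign changed, to -0.008, with libraries scaled to equal medians. The count of genes past the threshold was 2 with library weights, whose estimation stopped before its tolerance, and with both first replicates left out, and 0 to 2 leaving out 1 library, the 2 coming without control replicate 1. The replicate block changed no call. Leaving out both first replicates and removing the length trend were chosen after seeing the data. With all 6 libraries the intervals of Gzmb, Gzmc, Srgn, Nkg7 and Ctsw included 0. Depth is unknown.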
